A study of Mus musculus with 9 samples.

Results

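miR-22 is a microRNA (miRNA) whose hairpin precursor gives rise to a mature miRNA from each of its arms, miR-22-3p and miR-22-5p, and both were followed here across all 9 libraries. These are 2 of the 1966 mature miRNAs listed in the deposited counts, of which 909 were detected in any library. They were chosen by name and because miR-22 is abundant in these libraries, so its abundance is described and not tested. Small RNA was sequenced from the quadriceps of mice aged 90 days by the labels, with 3 libraries per group. The labels call these replicates, and each is taken here as 1 mouse, which neither the labels nor the paper states for these groups. WT mice were C57BL/6J, Mbnl1+/+ Mbnl2+/+. Mbnl1KO mice were C57BL/6J and carried Mbnl1{delta}E3/{delta}E3 with Mbnl2+/+. Mbnl2KO mice were of the strain B6.C-Tg(CMV-cre)1Cgn/J, in which Cre is under the ubiquitously active CMV promoter, and are labelled as Mbnl1+/+ with Mbnl2{delta}E2/{delta}E2, Mbnl2{delta}E2/{delta}E3 and Mbnl2{delta}E2/{delta}E4 in replicates 1, 2 and 3. The paper instead gives a slightly younger age, a single genotype for the Mbnl2KO mice and littermates as WT, and which description holds was not settled here. The Mbnl2KO mice were analysed as 1 group, and no WT mouse carries the Cre strain label. The comparisons ask whether the loss of either splicing factor, MBNL1 or MBNL2, changes the miRNA content of muscle. The tables hold no mRNA, so the loss of Mbnl1 or Mbnl2 was not checked in these libraries.

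A miRNA hairpin is cut from a longer primary transcript by Drosha and is then opened by Dicer into a short duplex of both arms. Usually one strand of the duplex is loaded into an Argonaute protein and guides the silencing of target mRNAs, and the other is degraded. The choice is known to depend on how tightly each end of the duplex is paired and on the first base of each strand. miR-22-3p is the usual guide strand, is abundant in heart and skeletal muscle, and has been studied in cardiac growth and in muscle differentiation.

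The mature sequences are shown because the arms would act on different targets. They are given 5′ to 3′ as in RefSeq, with the seed, bases 2 to 8, in capitals.
mmu-miR-22-5p: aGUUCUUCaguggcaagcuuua
mmu-miR-22-3p: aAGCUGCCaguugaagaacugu
The seeds differ, and none of the other mature miRNAs in the RefSeq table, which held 1679 names and matched 1675 of the listed 1966, has either seed. Each arm comes from a single locus, so neither count is shared with a second copy. The hairpin is shown because the ratio of its arms is followed below, with the arms in capitals.
mmu-mir-22: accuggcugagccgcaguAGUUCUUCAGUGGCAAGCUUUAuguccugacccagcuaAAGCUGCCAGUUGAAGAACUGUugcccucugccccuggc
It is 95 bases long, with a loop of 16 bases between the arms, and lies at chr11:75463716-75463810 on the plus strand of GRCm38.p6. In GRCm39 the same sequence lies at chr11:75354542-75354636, within exon 2 of Mir22hg, a long noncoding RNA gene on the same strand. RNAfold predicted 19 base pairs between the arms and a minimum free energy of -41.90 kcal/mol. The first 4 bases of both arms were paired, with 1 GC pair at the 5′ end of miR-22-5p and 2 at that of miR-22-3p, and both arms begin with A. The YGCY motif that MBNL proteins are known to bind, spelled as UGC or as CGC with either U or C after it, was searched on the RNA strand alone and matched at 3 places, none in the loop. All were UGCC, at base 61, within the seed of miR-22-3p, and at bases 79 and 86, after that arm. Among 114 hairpins of 90 to 100 bases, 78.1% held at least 1 match and 25.4% held 3 or more, so these matches are common for a hairpin of this length.

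Library totals ranged from 4761271 to 6277018 counts. A single miRNA, the muscle-specific miR-1a-3p, took 61.4% to 73.7% of it, so shares of the total depend on that miRNA. Levels are therefore given as counts normalized with TMM, which matches libraries on the bulk of their miRNAs. The TMM factors of the 9 libraries were between 0.826 and 1.27. Replicate 1 of Mbnl1KO had the highest factor and the lowest share of miR-1a-3p (61.4%). All p-values rest on 3 mice per group, where an exact permutation test cannot give a p below 0.1.

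miR-22-3p was the 5th to 7th most abundant mature miRNA in all 9 libraries, at 1.19% to 2.29% of the total count. In WT, 74707, 75500 and 64355 reads were counted in replicates 1, 2 and 3, which gave 75779, 72900 and 80016 normalized counts. In Mbnl1KO, 99648, 120528 and 125311 reads gave 76608, 126075 and 108596 normalized counts. In Mbnl2KO, 89486, 80616 and 65227 reads gave 91114, 75952 and 82638. The WT mice were thus close together, 2 of 3 Mbnl1KO mice were above all other mice, and replicate 1 of Mbnl1KO was within the range of WT. The Mbnl2KO mice overlapped both other groups. The mean ± SD was 76232 ± 3579 in WT, 83235 ± 7599 in Mbnl2KO and 103760 ± 25086 in Mbnl1KO (n = 3 each), and in this order neighbouring groups overlapped.

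miR-22-5p was the 52nd to 58th most abundant mature miRNA. In WT, 2127, 2888 and 1741 reads gave 2158, 2789 and 2165 normalized counts. In Mbnl1KO, 2317, 1974 and 2141 reads gave 1781, 2065 and 1855 normalized counts. In Mbnl2KO, 2004, 1921 and 1806 reads gave 2040, 1810 and 2288. Replicate 2 of WT stood above all other mice, and the Mbnl1KO mice were below every WT mouse. The Mbnl2KO mice again overlapped both other groups. The mean ± SD was 2370 ± 362 in WT, 2046 ± 239 in Mbnl2KO and 1901 ± 147 in Mbnl1KO (n = 3 each). The order of the groups was thus the opposite of that for miR-22-3p.

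**Figure D1:**
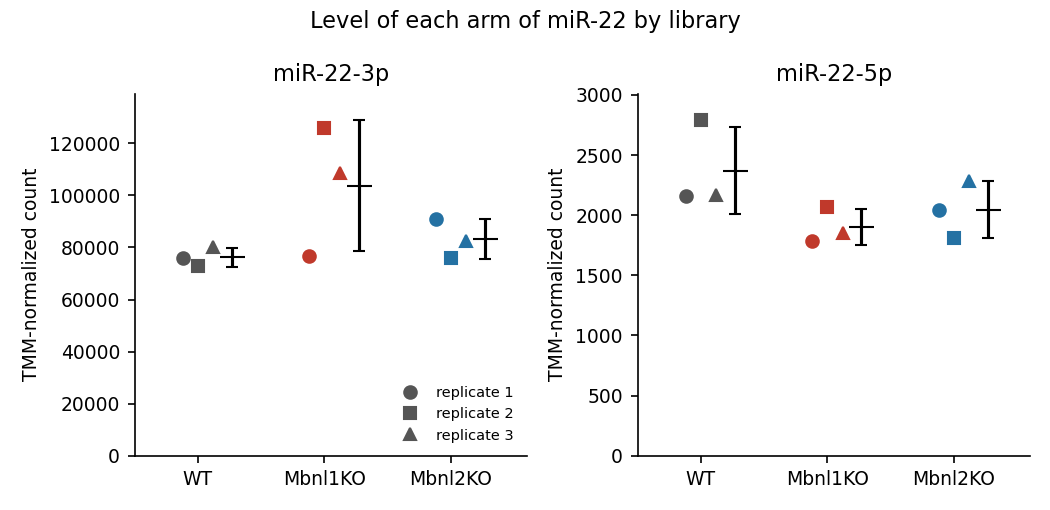
Normalized counts (vertical axes, from 0) of miR-22-3p (left) and miR-22-5p (right) in each library, by group. Symbols mark the replicates and bars the mean ± SD of 3 mice. Replicate 1 of Mbnl1KO (76608 for miR-22-3p) sits at the level of WT, and replicate 2 of WT (2789 for miR-22-5p) sits above all other mice.

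In Mbnl1KO, miR-22-3p was higher than in WT by 0.38 on the log2 scale (SE 0.15, 95% interval 0.08 to 0.68), or 1.30-fold, with an adjusted p of 0.0421 by edgeR's quasi-likelihood test. miR-22-5p was lower by the same test, with a log2 change of -0.39 (SE 0.16, 95% interval -0.69 to -0.08), or 0.764-fold, and an adjusted p of 0.0416. The SEs and intervals here and below draw on the spread of all miRNAs or hairpins in the fit. They do not measure the spread of miR-22 alone. Both calls were near the threshold of 0.05, and by p-value the arms stood 98th (5p) and 100th (3p) among 317 tested miRNAs, of which 33.4% passed. In the same comparison 18.9% of the tested miRNAs were called higher and 14.5% lower. For miR-22-3p the groups overlapped, and the exact two-sided permutation test gave p = 0.2. For miR-22-5p they did not overlap, as for 43.8% of all tested miRNAs (21.8% with Mbnl1KO below WT), and that test gave its smallest possible p of 0.1.

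Each call was lost under other settings, and their directions were kept under all that were run. The call on miR-22-3p was lost with DESeq2's Wald test (adjusted p = 0.124), and of the 6 fits that left out 1 library it passed only without replicate 1 of Mbnl1KO (log2 change 0.55, adjusted p = 0.00244). Without replicate 2 of Mbnl1KO the change was 0.20 (adjusted p = 0.323). That on miR-22-5p was lost in 4 of 6 such fits, and without replicate 2 of WT the change was -0.26 (adjusted p = 0.238). Scaling to library totals, which moved the median log2 change of all tested miRNAs from -0.01 to 0.28, gave 0.65 for miR-22-3p (adjusted p = 0.000395) and -0.09 for miR-22-5p (adjusted p = 0.738). As shares of the total count, miR-22-3p was 1.22% to 1.35% in WT and 1.69% to 2.29% in Mbnl1KO, without overlap. On that scale miR-22-5p was 0.0346% to 0.0471% in WT and 0.0341% to 0.0393% in Mbnl1KO, which overlapped. The size of each arm's change thus depends on the scaling, while the difference between the arms does not.

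In Mbnl2KO neither arm differed from WT beyond the spread between mice. The log2 change of miR-22-3p was 0.12 (SE 0.12, 95% interval -0.13 to 0.37, adjusted p = 0.622 by edgeR). That of miR-22-5p was -0.21 (SE 0.14, 95% interval -0.51 to 0.08, adjusted p = 0.491), and -0.08 without replicate 2 of WT (adjusted p = 0.845). Among 293 miRNAs tested in this comparison, 5.8% passed. Both knockouts were compared with the same 3 WT mice, so their changes are not independent. Compared directly, Mbnl1KO and Mbnl2KO differed by 0.28 for miR-22-3p (95% interval -0.07 to 0.64, adjusted p = 0.229) and by -0.13 for miR-22-5p (95% interval -0.44 to 0.17, adjusted p = 0.496), where 26.9% of 309 tested miRNAs passed. Without replicate 2 of Mbnl1KO the former was 0.11, without replicate 1 of Mbnl1KO it was 0.45 (adjusted p = 0.0534), and without replicate 2 of Mbnl2KO the latter was -0.23. Scaled to library totals, the former was 0.54 (adjusted p = 0.00613) and the latter turned to 0.14 (adjusted p = 0.693).

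The ratio of the arms within a library needs no scaling. In WT, 2.85, 3.83 and 2.71 reads of miR-22-5p were counted per 100 reads of miR-22-3p in replicates 1, 2 and 3. In Mbnl1KO there were 2.33, 1.64 and 1.71, and in Mbnl2KO 2.24, 2.38 and 2.77. All Mbnl1KO mice were below all WT mice, with replicate 1 of Mbnl1KO the nearest to them, and the Mbnl2KO mice overlapped both other groups. The mean ± SD was 3.13 ± 0.610 in WT, 2.46 ± 0.274 in Mbnl2KO and 1.89 ± 0.378 in Mbnl1KO (n = 3 each). Read the other way, 26.1 to 37.0 reads of miR-22-3p were counted for each read of miR-22-5p in WT, against 43.0 to 61.1 in Mbnl1KO and 36.1 to 44.7 in Mbnl2KO.

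Depth did not limit these ratios. As a share of the reads of both arms, miR-22-5p was 2.77% (95% Wilson interval 2.65% to 2.89%), 3.68% (3.55% to 3.82%) and 2.63% (2.51% to 2.76%) in WT. It was 2.27% (2.18% to 2.37%), 1.61% (1.54% to 1.68%) and 1.68% (1.61% to 1.75%) in Mbnl1KO. In Mbnl2KO it was 2.19% (2.098% to 2.287%), 2.33% (2.23% to 2.43%) and 2.69% (2.57% to 2.82%). These intervals cover counting error alone, and identical reads need not be separate molecules. On the log2 scale the counting error of a ratio was 0.027 to 0.035 per library, against an SD between mice of 0.27 in WT, 0.28 in Mbnl1KO and 0.16 in Mbnl2KO, so the precision was set by the number of mice.

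**Figure D2:**
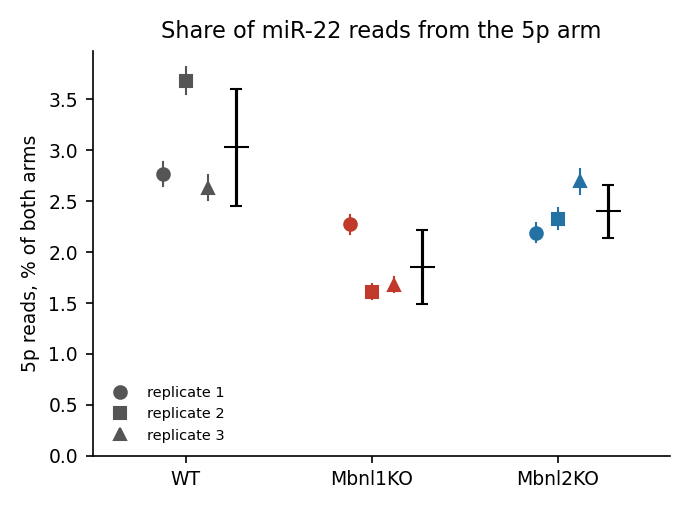
Reads of miR-22-5p as a percentage of the reads of both arms (vertical axis, from 0) in each library. Thin lines are 95% Wilson intervals of the counts and black bars the mean ± SD of 3 mice. The Mbnl1KO mice, at 1.61% to 2.27%, lie below the WT mice, at 2.63% to 3.68%.

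The ratio of 5p to 3p was lower in Mbnl1KO than in WT by edgeR, with the arms of each library as a pair and the library as a block. The log2 change was -0.73 (SE 0.20, 95% interval -1.11 to -0.34), or 0.604-fold, with an adjusted p of 0.00483 over 77 hairpins. Arms were paired by name, so hairpins whose arms carry unlike names in the table, such as those of miR-1a and miR-26a, are not among these or the hairpins counted below. It was lower in 3 of 3 Mbnl1KO mice than in any WT mouse, and the exact two-sided permutation test gave its smallest possible p of 0.1. Of the 77 hairpins 6.49% passed, and in 23.4% the groups did not overlap (7.79% with Mbnl1KO below WT). The call held under all 6 other settings of the fit, and was lost without replicate 2 of WT (log2 change -0.57, adjusted p = 0.137), the mouse with the most miR-22-5p. It held without replicate 1 of Mbnl1KO, where the log2 change was -0.89.

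In Mbnl2KO the log2 change of the ratio against WT was -0.33 (SE 0.18, 95% interval -0.69 to 0.03), and it did not pass the test by edgeR (adjusted p = 0.553). Without replicate 2 of WT it was -0.18 (adjusted p = 0.766). None of 67 hairpins (0%) passed in that comparison, where 6 had an unadjusted p under 0.05 and limma on the log2 ratios gave 0 calls, and 1 passed by edgeR when hairpins with at least 1 count in both arms were tested. Between Mbnl1KO and Mbnl2KO the log2 difference of the ratio was -0.39 (SE 0.18, 95% interval -0.74 to -0.05, adjusted p = 0.117 by edgeR), where 12% of 75 hairpins passed. Without replicate 1 of Mbnl1KO it was -0.55 (adjusted p = 0.00655), so whether the knockouts differ in this ratio rested on that mouse.

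The changes in both arms can be set beside those of the other hairpins. In Mbnl1KO against WT, the fitted changes of the arms had opposite signs in 18 of 77 hairpins (23.4%), and in 11 of these the 3p arm was the higher and the 5p arm the lower one, as for miR-22. In 16 hairpins both arms passed the test on levels, and in 2 of these, miR-22 and miR-378a, they passed in opposite directions. Of the 5 of these 77 hairpins whose ratio passed, miR-22 was the only one with a lower ratio, and the share of hairpins called lower was 1.3% and that called higher 5.19%. The others were miR-378a (log2 change 1.69, adjusted p = 1.3e-15), miR-434 (1.55, adjusted p = 7.51e-11), miR-329 (1.40, adjusted p = 0.00291) and miR-140 (0.62, adjusted p = 0.00761), the last named after its value was seen. The change in the ratio of miR-22 ranked 14th of 77 by size, where the median size was 0.26 on the log2 scale, and 4th by p-value. Between Mbnl1KO and Mbnl2KO the ratios that changed most were those of miR-154 (log2 difference -2.096), miR-378a (1.73) and miR-27a (-1.66).

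**Figure D3:**
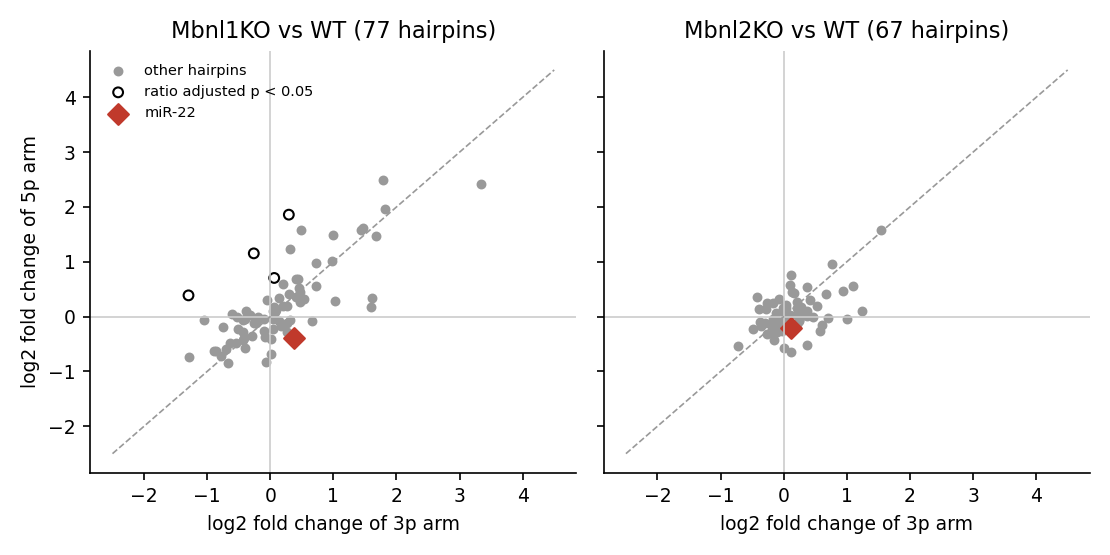
Log2 change of the 3p arm (horizontal axis) and of the 5p arm (vertical axis) for 77 hairpins in Mbnl1KO against WT (left) and 67 in Mbnl2KO against WT (right). The dashed line marks equal change and open circles the other hairpins whose ratio passed the test. miR-22 (diamond) lies below the line at 0.38 and -0.39 in Mbnl1KO and at 0.12 and -0.21 in Mbnl2KO.

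**Figure D4:**
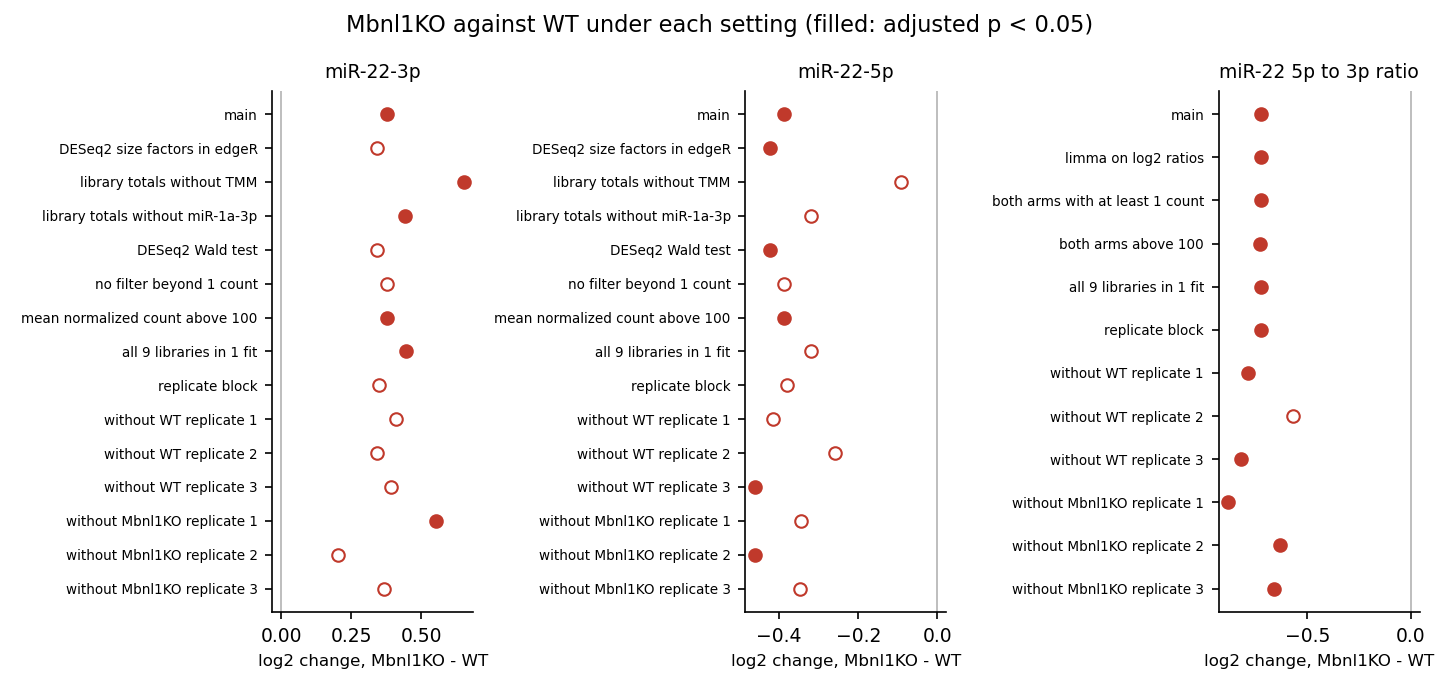
Log2 change between Mbnl1KO and WT (horizontal axes) of miR-22-3p, miR-22-5p and their 5p to 3p ratio under each setting, where main is the fit described in the text. Filled points had an adjusted p under 0.05. The ratio stays between -0.89 and -0.57 and fails the test without replicate 2 of WT, whereas each arm alone fails under several settings.

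Over the 9 libraries, 76 hairpins paired by name had both arms at a mean normalized count above 10. Summed over its arms miR-22 was the 3rd most abundant of these 76, after miR-133a, a miRNA of skeletal and heart muscle, and miR-30a. Among all mature miRNAs 5 were more abundant than miR-22-3p, some of them, such as miR-1a-3p and miR-26a-5p, from hairpins left out for their arm names, so this rank and the counts that follow hold for the 76 alone. The log2 ratio of 5p to 3p, averaged over the 9 libraries, was below 0 in 35 of the 76, and 6 of these had a lower one than miR-22. For miR-22 this average was -5.37, or 41.3 reads of 3p per read of 5p. It pools the groups, whose means were -5.02 in WT, -5.35 in Mbnl2KO and -5.74 in Mbnl1KO, and the place of miR-22 among the hairpins was not worked out group by group. The nearest ratios were those of miR-133a (45.0 reads of 3p per read of 5p), miR-148b (36.2), miR-223 (29.4), miR-27b (27.4) and miR-378a (17.3). The value of miR-378a averages over groups that differ, since its ratio was higher in Mbnl1KO, and so is the level of no group. Within groups the SD of the log2 ratio of miR-22 was 0.24, against a median of 0.36 over the 76 hairpins, and 19 of them had a lower one. That median includes hairpins with an arm near the filter of 10, whose ratios carry more counting error. It therefore does not show that the ratio of miR-22 was unusually steady. In miR-133a and miR-30a, the hairpins more abundant than miR-22, the SD was lower, at 0.19 and 0.12. The ratio of miR-133a, the nearest to that of miR-22, had a log2 change of -0.25 in Mbnl1KO against WT and did not pass (adjusted p = 0.575 by edgeR).

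**Figure D5:**
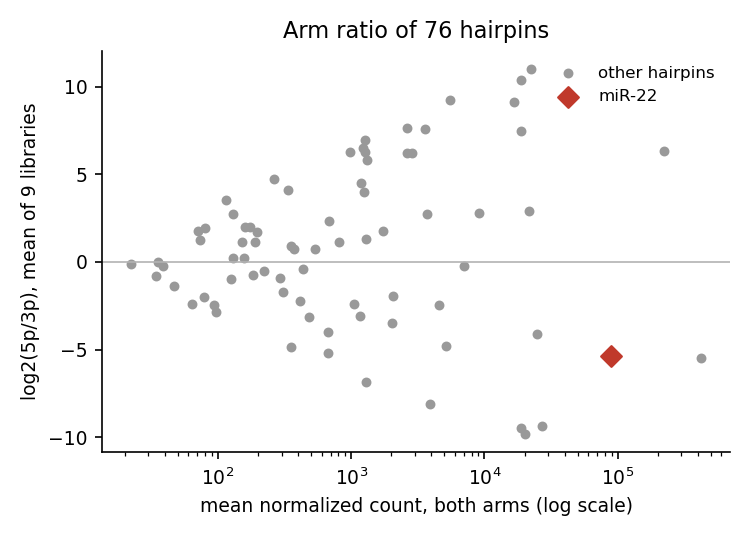
Mean log2 ratio of the 5p to the 3p arm over 9 libraries (vertical axis) against the summed mean normalized count of both arms (horizontal axis, log scale) for the 76 hairpins whose arms could be paired by name. miR-22 (diamond), at -5.37, is the 3rd most abundant of those plotted, and 6 of them lie below it.

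Summed over both arms, the normalized count was 77937, 75689 and 82181 in the WT mice, 78389, 128139 and 110452 in the Mbnl1KO mice and 93154, 77762 and 84926 in the Mbnl2KO mice. The sum follows miR-22-3p, since miR-22-5p is at most 3.68% of it, so the lower miR-22-5p of Mbnl1KO stood beside a total that was not lower than in WT on average (105660 ± 25219 against 78602 ± 3297, mean ± SD, n = 3 each). The arms did not vary together across libraries (Pearson's r = -0.26 over 9 libraries, and 0.30 after removing the group means).

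For each arm, the miRNAs of other hairpins that varied most like it were sought among 163 with a mean normalized count above 100, by Pearson's r of log2 normalized counts over the 9 libraries. These values share libraries and scaling and carry no test. Nearest to miR-22-3p were miR-185-5p (r = 0.91), miR-16-5p (0.89), a member of the family known to restrain the cell cycle, miR-29b-3p (0.85), known to target collagen mRNAs, miR-30e-5p (0.80) and miR-181c-5p (0.76). Nearest to miR-22-5p were miR-133a-5p (r = 0.88), which is likewise the rare arm of a muscle hairpin, miR-361-3p (0.82), miR-194-5p (0.79), miR-7a-5p (0.78) and miR-30b-5p (0.75). With the group means removed, r was between 0.46 and 0.88 for the former 5 and between 0.60 and 0.83 for the latter 5. These miRNAs were chosen for their r over the same libraries, which raises both sets of values. The lists for the arms had no miRNA in common.

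Beside the arms of miR-22, the 7 muscle miRNAs (myomiRs) serve as a reference. One of them, miR-486a-5p, was listed at 0, which need not mean that it was absent from the muscle, and 5 were tested, with a median log2 change of 0.72 in Mbnl1KO against WT where that of all tested miRNAs was -0.01. miR-206-3p, known to rise in regenerating muscle, and miR-133b-3p, from the same transcript, rose by 1.93 (adjusted p = 1.82e-31 by edgeR) and 0.72 (adjusted p = 0.0147). miR-1a-3p fell by 0.40 (adjusted p = 0.0453), a call lost in 10 of 14 alternatives, among them library totals, where its log2 change was -0.11 (adjusted p = 0.506). miR-133a-3p (0.04) and miR-499-5p (0.86, SE 1.28) did not pass. The latter had a mean normalized count of only 24.5 over the 9 libraries, and its uncertain change enters the median of 0.72. In Mbnl2KO miR-206-3p rose by 0.89 (adjusted p = 0.00213) and none of the 5 fell, where 3.41% of all tested miRNAs were called higher and 2.39% lower, with a median of -0.16 against 0.01 for all tested miRNAs.

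In whole muscle, fewer cells of a type and less RNA per cell cannot be told apart, so markers of other cells were summed as shares of the total count. The 4 markers of skeletal muscle fibres took 77.1% to 77.9% of the WT libraries, 71.9% to 75.8% of those of Mbnl1KO and 74.4% to 79.2% of those of Mbnl2KO. In Mbnl1KO against WT, where 18.9% of all tested miRNAs were called higher and 14.5% lower, 1 of these 4 rose (miR-206-3p) and 1 fell (miR-1a-3p), with a median log2 change of 0.45. That median is set in part by the uncertain change of miR-499-5p (0.86, SE 1.28). The 7 blood and immune markers took 0.0323% to 0.0397% of the WT libraries, 0.0417% to 0.0530% of those of Mbnl1KO and 0.0318% to 0.0427% of those of Mbnl2KO. Of the 5 tested in Mbnl1KO, miR-155-5p rose (0.86), and miR-223-3p (-0.87) and miR-142a-5p (-0.84) fell, and the median log2 change after TMM was -0.0015. miR-142a-3p was listed at 0 in all libraries. The 7 markers of connective tissue and vessel wall took 0.605% to 0.638% of the WT libraries, 0.751% to 0.890% of those of Mbnl1KO and 0.718% to 0.856% of those of Mbnl2KO. Of these, both arms of miR-126a were listed at 0, miR-199a-3p fell in Mbnl1KO (-0.43, adjusted p = 0.0172), and miR-143-3p rose in Mbnl2KO (0.47, adjusted p = 0.0274). After TMM the median log2 change of the 5 tested was -0.05 in Mbnl1KO and 0.04 in Mbnl2KO. The shares of the total were instead higher in both knockouts than in WT. The median weighs the 5 alike, but the shares follow miR-143-3p most (mean normalized count 27022, then miR-145a-5p at 7995). After TMM miR-143-3p changed by 0.27 in Mbnl1KO (adjusted p = 0.161 by edgeR). The shares also depend on miR-1a-3p, which took 67.2% to 73.7% in Mbnl2KO and 69.7% to 71.3% in WT. The part of these shifts in the levels and the ratio of miR-22 was not tested.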

How the data were processed

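The authors deposited raw counts of reads per mature miRNA for 9 libraries, not normalized. Per the paper's methods, adapters were clipped, identical reads collapsed and aligned to miRBase 21 with Megablast 2.2.26 (versions from the submitters' processing notes). Reads lying within an annotated mature miRNA, allowing a short margin at its ends, were then added up. The table itself does not say how it was counted. No depth beyond these totals was available.

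Libraries were grouped by their labels. The 6 libraries of each comparison were fitted with edgeR 4.0.16 (quasi-likelihood, robust, R 4.3.3) after TMM, keeping miRNAs whose normalized count averaged above 10. p-values were adjusted over all tested miRNAs (Benjamini-Hochberg, threshold 0.05). Arm ratios were fitted likewise, with library as a block, over hairpins with both arms above 10. Tests were checked on simulated counts. Python 3.11.15, pandas 2.3.3, NumPy 2.4.6, matplotlib 3.10.9 and RNAfold 2.7.2 were used. Sequences are from RefSeq (GRCm38.p6), and the host gene is from GENCODE on GRCm39.

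The members and lists were chosen with earlier results of these data known. Named were both arms, the 5 miRNAs most like each, the myomiRs, the 5 hairpins nearest in ratio, the 3 ratios that changed most among those past the threshold in each comparison (none passed in Mbnl2KO against WT), and the cell markers. Alternatives were DESeq2 1.42.0 (Wald test or size factors), library totals with or without miR-1a-3p, limma 3.58.1 on log2 ratios, other filters, all 9 libraries in 1 fit, a replicate block, a threshold of 0.01, and each library left out.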

Additional observations from a re-analysis of the deposited data

How the results depend on the processing

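For Mbnl1KO against WT, the log2 change of miR-22-3p lost its call with DESeq2 size factors (0.34, adjusted p = 0.061), DESeq2's Wald test (0.34, adjusted p = 0.124), no filter beyond 1 count (0.38, adjusted p = 0.0727) and a threshold of 0.01 (0.38), and was between 0.20 and 0.55 with a library left out. That of miR-22-5p lost its call with library totals (-0.093, adjusted p = 0.738), totals without miR-1a-3p (-0.32), all 9 libraries in 1 fit (-0.32), no filter (-0.39) and a threshold of 0.01 (-0.39), and was between -0.46 and -0.26 with a library left out. Their ratio was between -0.89 and -0.57 with a library left out, lost its call without replicate 2 of WT, and kept it otherwise (adjusted p of 0.000332 to 0.0207 under the other settings). For Mbnl2KO against WT, with a library left out, the change of miR-22-3p was between 0.04 and 0.21, that of miR-22-5p between -0.28 and -0.08 and that of the ratio between -0.43 and -0.18, and none passed. Between the knockouts, library totals gave 0.54 for miR-22-3p and the reversed 0.14 for miR-22-5p, and with a library left out, after TMM, miR-22-3p was between 0.11 and 0.45, miR-22-5p between -0.23 and -0.096 and the ratio between -0.55 and -0.30. The replicate numbers gave no clear sign of pairing. Deviations of same-numbered libraries correlated between -0.15 and 0.15, and those of libraries with unlike numbers between -0.17 and 0.14. With 3 libraries per group such values cannot exclude that mice were paired. With the replicate number as a block the changes in Mbnl1KO were 0.35 (miR-22-3p, adjusted p = 0.105) and -0.38 (miR-22-5p, adjusted p = 0.0664), below the call, and -0.73 for the ratio, which kept it.

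Among all miRNAs, 70 of 167 tested passed in Mbnl1KO against WT at a mean above 100, in place of 106 of 317, since fewer were tested. In Mbnl2KO against WT, 17 passed, and 7 with library totals, 10 above 100 (of 155 tested in place of 293), 11 in a fit of all 9 libraries, 6 at a threshold of 0.01 and 4 to 26 with a library left out. Between the knockouts, 83 passed, and 44 at 0.01. With a library left out, 3 to 7 hairpin ratios passed in Mbnl1KO (5 with all), 0 to 1 in Mbnl2KO (0 with all) and 5 to 13 between the knockouts (9 with all, and 4 with both arms above 100). With at least 1 count in both arms, 1 ratio passed in Mbnl2KO. The cause of the differences other than those from filters was not tested. Scaling to library totals called 91 miRNAs higher and 11 lower in Mbnl1KO, where TMM called 60 and 46, and 70 and 4 between the knockouts, where TMM called 51 and 32.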
